A study of Mus musculus with 15 samples.

Results

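The 10 marker genes of recruited monocytes and of the macrophages that arise from them (Ly6c2, Ccr2, Cx3cr1, Itgam, S100a4, Plac8, Cd14, Ms4a7, Cybb and Clec12a) were followed in mouse liver after treatment with GDF15 or matched food restriction. They were taken by gene symbol from a named list of 10. The rule used no measured value, but the list was drawn up with earlier results of these data known. All 10 were among the 15302 genes of the count table and among the 12274 genes tested. RNA was sequenced from whole liver of 15 wild-type mice, which were single-housed at about 29°C and had eaten, from 8 weeks of age, a diet that causes MASH, the form of fatty liver disease in which inflammation and cell death are present. The GDF15 group (n = 5) received recombinant GDF15, a stress hormone that lowers food intake through a hindbrain receptor, as a once-daily subcutaneous injection of 1 nmol/kg. The PairFed group (n = 5) got as much food each day as GDF15 animals had eaten on the day before, and the Vehicle group (n = 5) was the control. Whether PairFed animals were injected with vehicle is not given in the labels. All 3 groups shared the diet, the warm housing and the wild-type genotype. No group without MASH diet was analysed here, so the levels have no healthy reference.

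Classical monocytes leave the bone marrow and enter an injured liver through the chemokine receptor CCR2, whose main ligand is CCL2. In the tissue they lose Ly6C, the surface protein by which they are recognised in mice, and mature into macrophages that can take up residence beside or in place of Kupffer cells, the liver's own macrophages. In steatohepatitis such incoming cells are a known source of inflammatory cytokines and of the lipid-associated macrophages that gather around dying hepatocytes. No marker in the list is wholly private to monocytes: Ly6C is also carried by endothelial and T cells, CX3CR1 by dendritic and NK cells, CD11b (the product of Itgam) and the NADPH oxidase by neutrophils, and S100A4 by fibroblasts and T cells.

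Ly6c2 was the single member called as changed in the main fit of all 15 libraries. It was 2.61-fold lower in GDF15 than in Vehicle livers, with PairFed in between. All 10 members had a lower fitted level in GDF15 than in Vehicle and all 10 had a lower one in PairFed than in Vehicle, but apart from Ly6c2 none of these differences passed the threshold of an adjusted p below 0.05 over all tested genes. Between GDF15 and PairFed the members were split evenly, 5 lower and 5 higher in GDF15, and no member passed.

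The regulatory sequence upstream of Ly6c2 is shown because that gene carries the single call. That of Itgam is shown because CD11b is the standard surface marker of myeloid cells. The Itgam promoter is a classical target of PU.1, the transcription factor that directs monocyte development. Sequences are from RefSeq on GRCm38.p6, the mm10 assembly, and are written 5′ to 3′ on the gene's strand. Capitals mark the letters GAGGAAGT or GAGGAA, a purine-rich core bound by PU.1 and other ETS factors, or the reverse complement of that core.
Ly6c2 upstream, chr15:75111972-75112221, minus strand: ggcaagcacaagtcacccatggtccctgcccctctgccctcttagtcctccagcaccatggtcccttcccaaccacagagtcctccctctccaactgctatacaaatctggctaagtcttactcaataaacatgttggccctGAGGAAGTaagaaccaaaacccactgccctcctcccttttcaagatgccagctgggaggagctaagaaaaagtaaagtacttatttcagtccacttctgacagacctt
Ly6c2 after the start, chr15:75111932-75111951, minus strand: gtcagaGAGGAAGTaaggac
Itgam upstream, chr7:128062390-128062639, plus strand: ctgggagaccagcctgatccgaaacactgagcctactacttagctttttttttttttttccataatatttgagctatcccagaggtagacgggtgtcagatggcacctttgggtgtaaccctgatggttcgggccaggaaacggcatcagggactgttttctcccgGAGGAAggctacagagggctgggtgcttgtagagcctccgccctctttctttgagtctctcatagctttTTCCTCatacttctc

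RefSeq start-site windows of 300 bases (250 before and 50 after the start) were at hand for 9 of the 10 members, Cd14 being without one. GAGGAA, searched on both strands, was in a window of 7 of these 9 genes: Ly6c2, Itgam, S100a4, Plac8, Ms4a7, Cybb and Clec12a. By window it was in 8 of the members' 12, where 28.28% of all 32851 windows of the genome table held it, so the short core is common. The longer GAGGAAGT, which contains the shorter one, was in 3 of the 12 windows, those of Ly6c2 and S100a4, and in 3.2% of all windows. RefSeq gave Ly6c2 a pair of start sites close together. Counting the upstream one, to which the printed sequences refer, as 0, GAGGAAGT lay at -108 to -101 and at 26 to 33. Counted from the other start, the same matches lay at -142 to -135 and -8 to -1, so the stretch printed as after the start lies before that one. TTGCNNAA, the form bound by C/EBP factors, was in 2 of the 12 windows, of Plac8 and Clec12a, and in 10.8% of all windows. TGTTCT, the half-site of the glucocorticoid receptor, was in 1 of the 12, of Ms4a7, and in 18.97% of all windows. These matches describe the letters in the windows and were not tested against the expression data.

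Total counts ran from 8551557 to 12994187 per library, with so few reads in some genes that precision differed widely between members. The 5 deeper libraries, parted from the rest by the largest gap in total count, were Vehicle 4 and PairFed 2 to 5, so depth and group were partly tied. Numbers after a group name only tell its libraries apart. The tissue label was checked against a defining hepatocyte gene: Alb, which encodes albumin, was at 68833 ± 7364 CPM (counts per 1e6 of the library's TMM-scaled total) in Vehicle (mean ± SD, n = 5). GDF15 1 stood apart, with the lowest level of 5 of the 10 members and the lowest summed level of all 10, at 46.3 CPM. It also had the lowest score of the 15 libraries for leukocyte, Kupffer cell, endothelial and stellate genes, and values without it are given for the members and for most lists. Levels are compared between groups for 1 gene at a time, since CPM is not corrected for gene length, and in bulk tissue fewer cells of a type and less RNA per cell cannot be told apart. The labels name the libraries of a group as separate liver samples and no more, so p-values measure the spread between these samples.

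Ly6c2 encodes Ly6C2, the surface protein that marks the inflammatory, newly arrived monocyte. Its levels in Vehicle 1 to 5 were 1.68, 1.41, 2.08, 1.90 and 0.749 CPM. In GDF15 1 to 5 they were 0.383, 0.459, 0.585, 0.980 and 0.525 CPM. In PairFed 1 to 5 they were 1.12, 0.874, 0.643, 1.07 and 0.785 CPM. In 4 of the 5 GDF15 libraries the level was below the lowest Vehicle library, and the ranges of these groups overlapped through Vehicle 5, the low end of its group, and GDF15 4, the high end of its own. The means were 1.56 ± 0.521 CPM in Vehicle, 0.900 ± 0.200 in PairFed and 0.587 ± 0.233 in GDF15 (SD, n = 5 each).

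The log2 fold change of Ly6c2 in GDF15 vs Vehicle was -1.38 ± 0.33 (SE, adjusted p = 0.0311). It made Ly6c2 the 1 of 10 members called, where 2.9% of all 12274 genes were called in this comparison. In PairFed vs Vehicle the log2 fold change was -0.81 ± 0.30 (adjusted p = 0.178) and in GDF15 vs PairFed -0.57 ± 0.35 (adjusted p = 0.511), so neither neighbouring pair in the order Vehicle, PairFed, GDF15 passed the threshold. The gene is weakly expressed in whole liver. No GDF15 library had more than 10 counts of it. With the GDF15 and Vehicle libraries alone Ly6c2 did not pass the filter for low counts, so that fit could not test it. The change rested on 84 counts in the Vehicle libraries, 28 in GDF15 and 54 in PairFed, with 3 to 26 counts per library.

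The call of Ly6c2 depended on single libraries. In edgeR's test it was kept in 9 of the 15 fits that left out 1 library and lost without Vehicle 1 (adjusted p = 0.0771), Vehicle 3 (adjusted p = 0.0789), Vehicle 4 (adjusted p = 0.0621), GDF15 1 (adjusted p = 0.0806), GDF15 2 (adjusted p = 0.0918) or GDF15 5 (adjusted p = 0.0547). Its log2 fold change was between -1.66 and -1.28 in those 15 fits. It was also lost among the 10 shallower libraries (-1.30, adjusted p = 0.129), and with the score of immediate-early genes as a covariate (-1.07, adjusted p = 0.658). Immediate-early genes respond within minutes to stimuli and handling, and their score stood 0.93 higher in GDF15 than in Vehicle on the log2 scale, so this covariate moves with the group. DESeq2 (adjusted p = 0.0159), limma-voom (adjusted p = 0.0466) and a term for the deeper libraries (adjusted p = 0.0432) kept it.

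**Figure D1:**
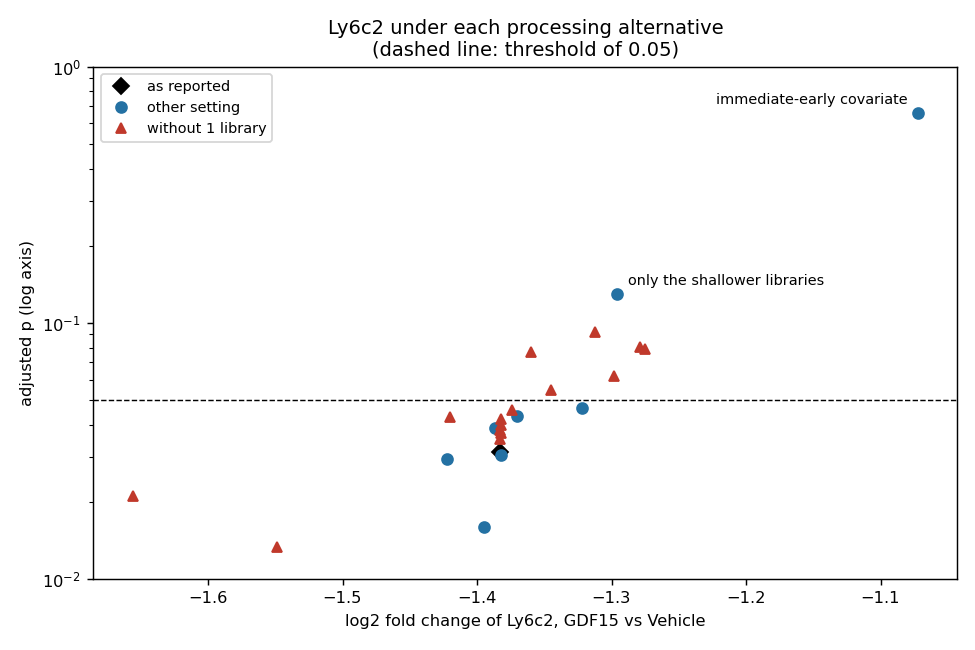
Log2 fold change of Ly6c2 in GDF15 vs Vehicle (x axis) against its adjusted p (y axis, log scale) as reported (diamond), under other settings (circles) and without 1 library each (triangles). All values lie between -1.66 and -1.07, and those above the dashed line at 0.05 include the fit with the immediate-early covariate, at an adjusted p of 0.658.

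Ly6c2 lies on chromosome 15 at 75108158 to 75111970 (mm10, GENCODE M21 annotation), on the minus strand, in a cluster with its near copy Ly6c1, at 75044018 to 75048830, which is carried by endothelial cells. Of the 2714 words of 31 bases in Ly6c2 transcripts, 23.7% occur in transcripts of another gene and 21.4% in those of Ly6c1, so reads can be shared between the copies. Ly6c1 itself had 41 counts over the 15 libraries (15 in Vehicle, 8 in GDF15 and 18 in PairFed) and was too low to be tested. The log2 ratio of Ly6c2 to Ly6c1 counts was 1.85 ± 0.741 in Vehicle, 1.10 ± 0.911 in GDF15 and 1.35 ± 0.984 in PairFed (mean ± SD, n = 5, prior count of 2). It was 0.75 lower in GDF15 than in Vehicle by difference of means (exact permutation test, two-sided p = 0.183, 0.548 adjusted over the 3 comparisons, smallest possible p 0.00794). Whether the fall of Ly6c2 was shared by Ly6c1 was therefore not detectable at this depth.

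**Figure D2:**
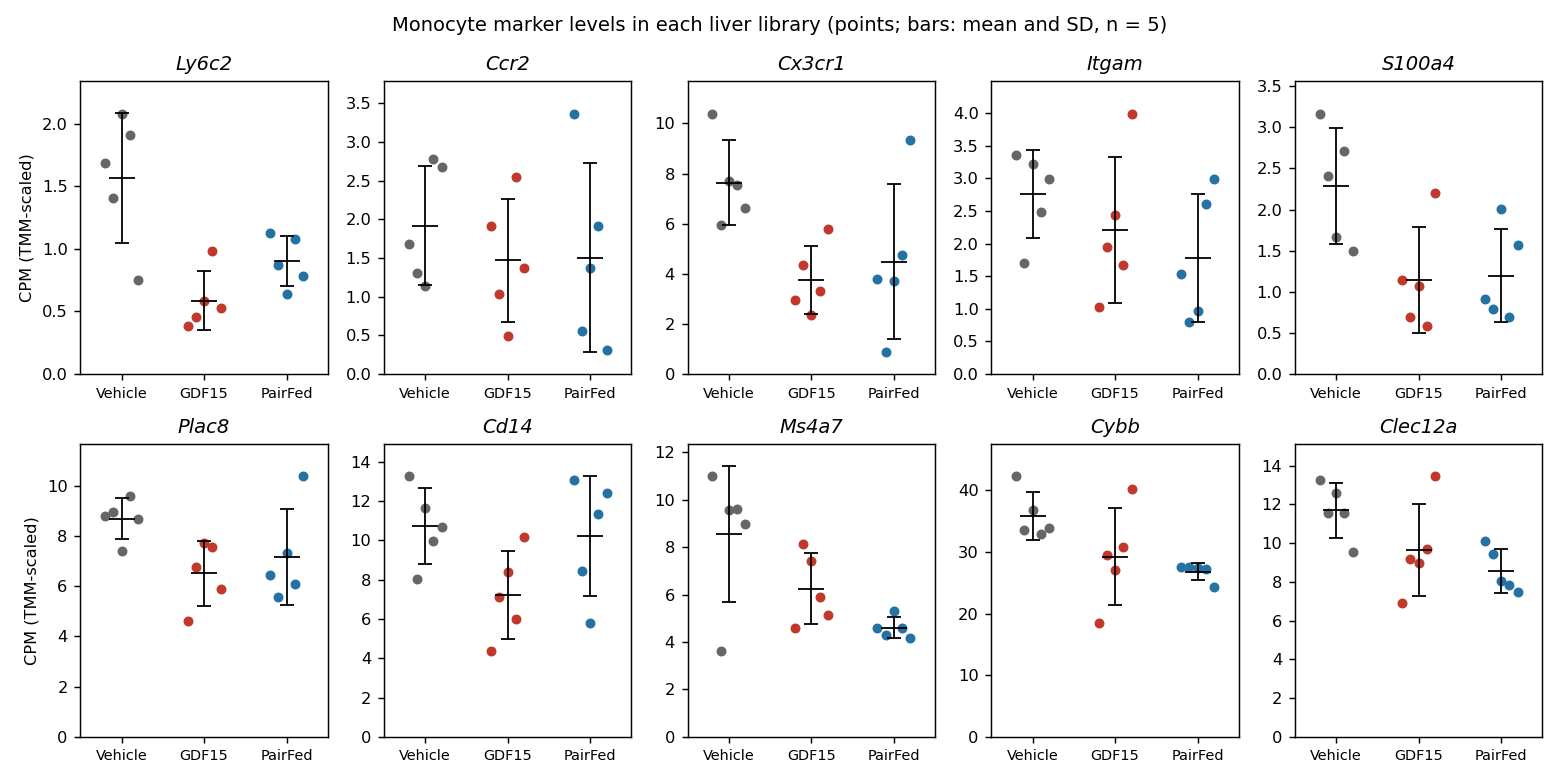
Level of each of the 10 markers (y axis, CPM after TMM scaling, from 0) in every liver library of the Vehicle, GDF15 and PairFed groups (points), with mean and SD (bars, n = 5). The Ly6c2 points of GDF15 lie at 0.383 to 0.980 CPM against 0.749 to 2.08 in Vehicle, while for Ccr2 the 3 groups cover much the same range.

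Ccr2 and Cx3cr1 encode the chemokine receptors of the classical and the patrolling monocyte, the first being the one by which cells leave the marrow. Ccr2, on chromosome 9 at 124101950 to 124113557 (plus strand), was at 1.68, 1.31, 1.14, 2.78 and 2.68 CPM in Vehicle 1 to 5. It was at 1.92, 1.03, 0.487, 2.55 and 1.37 CPM in GDF15 1 to 5, and at 3.37, 0.556, 1.37, 1.92 and 0.314 CPM in PairFed 1 to 5. High and low libraries occurred in each group, and both the highest and the lowest of the 15 were PairFed libraries. Ccr2 differed by a log2 fold change of -0.40 ± 0.51 in GDF15 vs Vehicle (adjusted p = 0.752) and -0.41 ± 0.50 in PairFed vs Vehicle (adjusted p = 0.718). Its biological coefficient of variation, the spread between libraries beyond counting error, was 50.9%, the highest of the members and above the 11.0% median of all tested genes. A change of the size seen for Ly6c2 would be less than 3 of its standard errors.

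Cx3cr1, which binds the membrane-tethered ligand CX3CL1 and is gained as monocytes mature, was at 10.4, 5.93, 7.69, 7.55 and 6.64 CPM in Vehicle 1 to 5. It was at 2.94, 4.36, 2.34, 3.33 and 5.78 CPM in GDF15 1 to 5. Every GDF15 library was below every Vehicle library, which made Cx3cr1 the 1 member of 10 whose ranges in these groups did not overlap, where the same held for 3.99% of all tested genes. Its log2 fold change was -1.03 ± 0.41 (adjusted p = 0.218), short of the threshold, and it passed in a fit of the GDF15 and Vehicle libraries alone (adjusted p = 0.0406). In PairFed 1 to 5 the levels were 3.78, 0.874, 3.70, 4.76 and 9.35 CPM, so this group held both the lowest and the second highest of all 15 libraries. PairFed vs Vehicle differed by -0.76 ± 0.39 (adjusted p = 0.336) and GDF15 vs PairFed by -0.27 ± 0.42 (adjusted p = 0.846) on the log2 scale, and the second turned positive without PairFed 5 (0.20) and by limma-voom (0.0096). Cx3cr1 lies on chromosome 9 at 119901616 to 120069879 (minus strand), where the antisense gene model Gm33858 overlaps its exons, and without the strand setting of the counting their reads cannot be told apart. Means stood in the order Vehicle (7.64 ± 1.70 CPM), PairFed (4.49 ± 3.08) and GDF15 (3.75 ± 1.35).

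The ligands of these receptors were measured in the same livers. Of 5 ligand genes, Ccl2 and Cx3cl1 were high enough to test, while Ccl7, Ccl8 and Ccl12 had 75, 86 and 10 counts over all libraries. Ccl2, the chief attractant of CCR2-bearing monocytes, was at 4.20 ± 1.48 CPM in Vehicle, 2.07 ± 1.10 in GDF15 and 3.22 ± 0.960 in PairFed (mean ± SD, n = 5). Its log2 fold change in GDF15 vs Vehicle was -0.97 ± 0.35 (adjusted p = 0.150), and it passed without Vehicle 4 (adjusted p = 0.0480) or without GDF15 3 (adjusted p = 0.0450). Cx3cl1 was at 3.86 ± 1.79 CPM in Vehicle and 2.56 ± 1.37 in GDF15, a log2 fold change of -0.56 ± 0.41 (adjusted p = 0.531). Neither ligand was called in any of the 3 comparisons by edgeR, DESeq2 or limma-voom, and at an unadjusted p below 0.05 edgeR counted 1, in GDF15 vs Vehicle. Over all tested genes, such an unadjusted p was reached by 16.7% in GDF15 vs Vehicle, 16.9% in PairFed vs Vehicle and 13.3% in GDF15 vs PairFed, and the unadjusted counts of lists are to be read against these shares.

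Itgam encodes CD11b, the alpha chain of the beta2 integrin by which monocytes and neutrophils adhere to vessel walls and bind complement. It lies on chromosome 7 at 128062640 to 128118491 (plus strand). Its levels were 1.71 to 3.36 CPM in Vehicle, 1.02 to 3.99 in GDF15 and 0.794 to 2.98 in PairFed. The ranges of the 3 groups overlapped, and the highest of all libraries was GDF15 5. Itgam had a log2 fold change of -0.30 ± 0.36 in GDF15 vs Vehicle (adjusted p = 0.741) and -0.62 ± 0.36 in PairFed vs Vehicle (adjusted p = 0.396). In the annotation 68.1% of the 31-base words of Itgam are also in another gene, 67.2% in the overlapping gene model Gm49368. The level of Itgam thus depends on how reads shared with that model were assigned. Gm49368 was not among the tested genes. Itgb2, the beta chain shared by this integrin family, had less spread: 19.8 ± 1.68 CPM in Vehicle, 14.9 ± 4.25 in GDF15 and from 13.6 to 16.7 in the PairFed libraries, with a log2 fold change of -0.40 ± 0.15 in GDF15 vs Vehicle (adjusted p = 0.151, and 0.0453 without GDF15 5). Of the 6 tested genes of the beta2 integrins and their ligands, all 6 were below 0 in GDF15 vs Vehicle (list median -0.44) and 5 in PairFed vs Vehicle (list median -0.30). None was called by edgeR in either comparison, where 4 and 3 had an unadjusted p below 0.05. DESeq2, run on all 7 genes of this list without the filter for low counts, called 1 and 2.

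S100a4, Plac8 and Clec12a are expressed by classical monocytes on their way into tissue. S100a4, a calcium-binding protein of motile cells, was at 3.17, 2.41, 1.66, 2.71 and 1.50 CPM in Vehicle 1 to 5. It was at 1.15, 0.688, 1.07, 0.588 and 2.21 CPM in GDF15 1 to 5, and at 0.918, 0.794, 2.01, 0.691 and 1.57 CPM in PairFed 1 to 5. In each of the other groups 1 or more libraries reached into the Vehicle range: GDF15 5, PairFed 3 and PairFed 5. The log2 fold changes against Vehicle were alike in size, -1.01 ± 0.37 for GDF15 (adjusted p = 0.154) and -0.94 ± 0.35 for PairFed (adjusted p = 0.186). These comparisons share the Vehicle libraries. GDF15 and PairFed differed by -0.07 ± 0.39 (adjusted p = 0.959), and that sign turned under several settings. S100a4, on chromosome 3 at 90603771 to 90606045 (plus strand), shares 49.2% of its 31-base words with the overlapping same-strand model Gm42674. That model was not among the tested genes.

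Plac8, a small cysteine-rich protein abundant in classical monocytes, was at 7.38 to 9.60 CPM in Vehicle, 4.60 to 7.70 in GDF15 and 5.56 to 10.4 in PairFed. GDF15 3 and GDF15 4 lay just above the lowest Vehicle library and the other GDF15 libraries below it, and the top library of all was PairFed 5. Plac8 had a log2 fold change of -0.41 ± 0.17 in GDF15 vs Vehicle (adjusted p = 0.223), and in PairFed vs Vehicle -0.28 ± 0.16 (adjusted p = 0.397). Plac8 is on chromosome 5 at 100553725 to 100572245 (minus strand) and Clec12a on chromosome 6 at 129342691 to 129365303 (plus strand). Clec12a, an inhibitory lectin receptor of myeloid cells that senses products of dead cells, was at 9.52 to 13.3 CPM in Vehicle, 6.90 to 13.5 in GDF15 and 7.46 to 10.1 in PairFed. Its log2 fold change was -0.27 ± 0.15 in GDF15 vs Vehicle (adjusted p = 0.368) and -0.45 ± 0.15 in PairFed vs Vehicle (adjusted p = 0.139). Among the GDF15 libraries Clec12a was lowest in GDF15 1 and highest in GDF15 5, and these libraries stood at the same ends of the group for Cybb.

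Cd14 is the co-receptor that hands bacterial lipopolysaccharide to TLR4. Its levels were 13.3, 8.04, 11.6, 9.96 and 10.7 CPM in Vehicle 1 to 5. In GDF15 1 to 5 they were 4.34, 7.11, 8.38, 5.98 and 10.2 CPM, and in PairFed 1 to 5 they were 13.1, 8.42, 5.78, 11.4 and 12.4 CPM. In 3 GDF15 libraries (1, 2 and 4) Cd14 was below every Vehicle library, whereas PairFed spanned the Vehicle range and fell below it only in PairFed 3. The means were 10.7 ± 1.94 CPM in Vehicle, 10.2 ± 3.04 in PairFed and 7.20 ± 2.24 in GDF15. Cd14 had a log2 fold change of -0.56 ± 0.23 in GDF15 vs Vehicle (adjusted p = 0.225) and -0.49 ± 0.23 in GDF15 vs PairFed (adjusted p = 0.373). The value for PairFed vs Vehicle was -0.07 ± 0.22 (adjusted p = 0.898), and that sign turned without Vehicle 1 (0.014), without PairFed 3 (0.076) and with 3 other settings.

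Tlr4, the receptor itself, was at 1.92 ± 0.544 CPM in Vehicle and 1.20 ± 0.249 in GDF15, a log2 fold change of -0.70 ± 0.27 (adjusted p = 0.185). Lbp, the secreted protein from hepatocytes that loads lipopolysaccharide onto CD14, was at 103 ± 8.63 and 112 ± 10.8 CPM (0.12 ± 0.09, adjusted p = 0.524). Of 10 tested genes of the CD14 and TLR4 pathway, 5 were below 0 in GDF15 vs Vehicle and 5 in PairFed vs Vehicle, with list medians of -0.02 and 0.02, near the medians of all genes. None was called by edgeR, DESeq2 or limma-voom in either comparison, and 3 and 2 had an unadjusted p below 0.05 in edgeR.

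Cybb and Ms4a7 are genes of the differentiated phagocyte. Cybb, the catalytic subunit NOX2 of the oxidase that makes superoxide, was at 42.3, 33.6, 36.8, 32.8 and 33.9 CPM in Vehicle 1 to 5. In GDF15 1 to 5 it was at 18.4, 29.5, 27.1, 30.8 and 40.3 CPM, and in PairFed 1 to 5 at 27.6, 27.6, 27.4, 27.2 and 24.3 CPM. Cybb lies on chromosome X at 9435252 to 9487771 (minus strand). The PairFed libraries lay close together and all below Vehicle, whereas GDF15 held both the lowest of the 15 libraries and, in GDF15 5, the second highest. Cybb was thus the 1 member of 10 whose PairFed and Vehicle ranges did not overlap, where 3.92% of all tested genes did the same. The log2 fold change was -0.42 ± 0.14 in PairFed vs Vehicle (adjusted p = 0.148, and 0.0469 in a fit of those groups alone) and -0.29 ± 0.14 in GDF15 vs Vehicle (adjusted p = 0.303). No member had non-overlapping ranges between GDF15 and PairFed, against 2.86% of all tested genes.

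Cyba, which forms the membrane part of the oxidase with NOX2, was at 18.1 ± 2.01 CPM in Vehicle and 14.1 ± 2.23 in GDF15, a log2 fold change of -0.36 ± 0.14 (adjusted p = 0.177). Of 5 tested oxidase genes, Cybb included, 4 were below 0 in GDF15 vs Vehicle (list median -0.45) and 5 in PairFed vs Vehicle (list median -0.31). None was called by edgeR, DESeq2 or limma-voom in either comparison, and 4 and 2 had an unadjusted p below 0.05 in edgeR.

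Ms4a7, a membrane protein of monocyte-derived macrophages that is low in Kupffer cells, was at 11.0, 3.62, 9.56, 9.60 and 8.99 CPM in Vehicle 1 to 5. In GDF15 1 to 5 it was at 4.60, 8.14, 7.41, 5.88 and 5.15 CPM, and in PairFed 1 to 5 at 4.59, 4.29, 5.30, 4.60 and 4.16 CPM. Vehicle 2 was the lowest of all 15 libraries, and apart from it each Vehicle library was above every PairFed and every GDF15 library. Ms4a7 lies on chromosome 19 at 11321039 to 11336146 (minus strand). The order of means was Vehicle (8.55 ± 2.85 CPM), GDF15 (6.24 ± 1.50) and PairFed (4.59 ± 0.442), so here PairFed was the low group. The log2 fold change in PairFed vs Vehicle was -0.90 ± 0.22 (adjusted p = 0.0761), just short of the threshold, and in GDF15 vs Vehicle -0.45 ± 0.22 (adjusted p = 0.320). Without Vehicle 2 both passed, at -1.09 (adjusted p = 0.0174) and -0.64 (adjusted p = 0.0363), and DESeq2 called PairFed vs Vehicle with all libraries (adjusted p = 0.0136). GDF15 and PairFed differed by 0.45 ± 0.23 (adjusted p = 0.420).

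**Figure D3:**
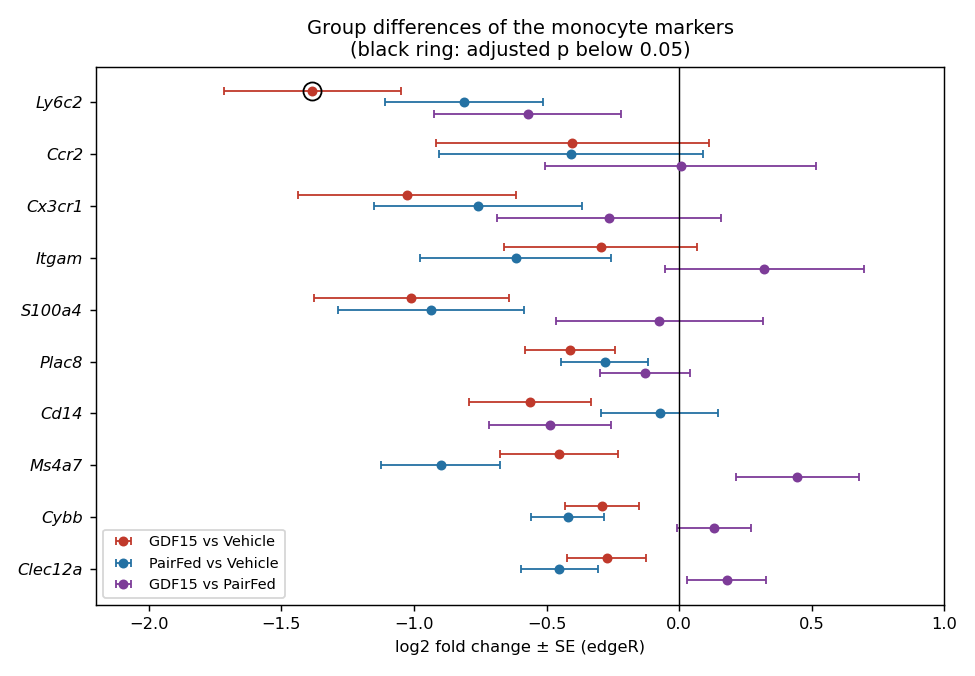
Log2 fold change (x axis, with SE as bars) of each marker in the 3 comparisons, told apart by colour, from edgeR's fit of all 15 libraries. The black ring marks the 1 value past an adjusted p of 0.05, Ly6c2 in GDF15 vs Vehicle at -1.38, and the first 2 comparisons share the Vehicle libraries.

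Set side by side, the 10 members were all below 0 in GDF15 vs Vehicle with a median log2 fold change of -0.43. Of all tested genes, 51.14% were below 0 there and their median was -0.00. Ly6c2 was the 1 member called by edgeR, DESeq2 or limma-voom, against 2.9% of all genes in edgeR. At an unadjusted p below 0.05 edgeR counted 5 members, against 16.7% of all genes. All 10 were below 0 in PairFed vs Vehicle as well, with a median of -0.54, where 50.13% of all genes were. None of the 10 was called there, against 0.285% of all genes; 5 members (Ly6c2, S100a4, Ms4a7, Cybb and Clec12a) had an unadjusted p below 0.05 in edgeR (16.9% of all genes), DESeq2 called Ms4a7 and limma-voom none. In GDF15 vs PairFed 5 of 10 were below 0 with a median of -0.03, where 49.81% of all genes were. None was called by edgeR, DESeq2 or limma-voom, against 0.782% of all genes in edgeR; 1 member, Cd14, had an unadjusted p below 0.05 (13.3% of all genes). The interval of the difference between GDF15 and PairFed was wide for most members, with standard errors from 0.14 for Cybb to 0.51 for Ccr2, so a missing call does not show equal levels.

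The mean log2 CPM of the 10 members, set to 0 at the Vehicle mean, ran from -0.28 to 0.25 in Vehicle. It ran from -0.95 to -0.23 in GDF15 (mean -0.60) and from -1.03 to -0.38 in PairFed (mean -0.59). The lowest libraries were PairFed 2 and GDF15 1. GDF15 5 was the only library of the treated and the pair-fed groups to reach into the Vehicle range. Without GDF15 1, all 10 members were still below 0 in GDF15 vs Vehicle, with a median of -0.40 and no call.

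Of 24 other monocyte genes, 19 could be tested. In GDF15 vs Vehicle 15 of the 19 were below 0 (list median -0.29), 2 fell and none rose. Of all tested genes, 2.9% were called there in either direction. Csf2ra, the alpha chain of the GM-CSF receptor, was at 15.8 ± 1.84 CPM in Vehicle, 11.5 ± 1.28 in GDF15 and 13.6 ± 1.39 in PairFed, with a log2 fold change of -0.46 ± 0.11 in GDF15 vs Vehicle (adjusted p = 0.0252). Itga4, the integrin chain of VLA-4 by which monocytes and lymphocytes bind VCAM-1, was at 5.89 ± 1.17, 3.75 ± 0.641 and 4.29 ± 0.666 CPM, with a log2 fold change of -0.65 ± 0.17 (adjusted p = 0.0488). For both, no GDF15 library reached the lowest Vehicle library, where 3.99% of all tested genes had ranges of these groups that did not overlap. Both genes were named because they were called in this comparison, so the gap is no separate support. The call of Csf2ra was kept in 10 of 15 fits without 1 library and that of Itga4 in 1 of 15, and without GDF15 1 neither was called.

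The defining receptor and transcription factor of the lineage were not past the threshold. Csf1r, the receptor of the growth factor that keeps monocytes and macrophages alive, was at 64.4 ± 10.1 CPM in Vehicle and 56.7 ± 20.5 in GDF15 (-0.18 ± 0.22, adjusted p = 0.742). Spi1, which encodes PU.1, was at 9.48 ± 1.51 and 8.29 ± 1.88 CPM (-0.19 ± 0.15, adjusted p = 0.574), and Lyz2, the lysozyme of myeloid cells, at 197 ± 40.1 and 173 ± 41.1 CPM (-0.19 ± 0.19, adjusted p = 0.686). The signs of Csf1r and Spi1 turned with the immediate-early covariate. For PairFed vs Vehicle, 16 of the 19 genes were below 0 (list median -0.27) and none was called by edgeR, DESeq2 or limma-voom, with 6 at an unadjusted p below 0.05 in edgeR.

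Markers of other cells that carry the same genes were read in the same libraries. Of 13 pan-macrophage and leukocyte genes, all 13 were below 0 in GDF15 vs Vehicle (list median -0.31) and 3 fell: Coro1a, Cd52 and Ctss. Of all tested genes, 2.9% were called there in either direction. The call of Coro1a was kept in 9 of 15 fits without 1 library, that of Cd52 in 14 and that of Ctss in 8. All 13 were below 0 in PairFed vs Vehicle too (list median -0.34), none called by edgeR or limma-voom, 1 by DESeq2 and 8 at an unadjusted p below 0.05 in edgeR. Their summed level was 580 to 690 CPM in Vehicle, 336 to 571 in GDF15 and 481 to 521 in PairFed, so it moved with the members in both groups. Without GDF15 1 the list median in GDF15 vs Vehicle went from -0.31 to -0.17, with 11 of 13 below 0 and 2 called. Of 10 dendritic cell genes 4 could be tested, and all 4 were below 0 in both comparisons with Vehicle (list medians -0.39 and -0.22). None was called by edgeR, DESeq2 or limma-voom in either, and 0 and 1 had an unadjusted p below 0.05 in edgeR.

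Of 13 T and NK cell genes 5 could be tested, all below 0 in GDF15 vs Vehicle (list median -1.36), and 2 fell. In that comparison 2.9% of all tested genes were called in either direction. Cd8a, the co-receptor of cytotoxic T cells, was at 1.71 ± 0.746 CPM in Vehicle and 0.411 ± 0.191 in GDF15, a log2 fold change of -2.03 ± 0.43 (adjusted p = 0.0172), and kept its call in 13 of 15 fits without 1 library. Cd3g, a chain of the T cell receptor complex, also fell (adjusted p = 0.0491) and kept its call in 2 of 15. In PairFed vs Vehicle all 5 tested T and NK cell genes were below 0 as well (list median -0.90). None was called there by edgeR, DESeq2 or limma-voom, and 4 had an unadjusted p below 0.05 in edgeR (16.9% of all genes). The summed level of these 5 genes was 3.32 to 10.7 CPM in Vehicle, 2.35 to 3.56 in GDF15 and 2.84 to 4.98 in PairFed. Of 13 neutrophil genes, 12 were in the table and 4 could be tested, 3 of them below 0 in GDF15 vs Vehicle (list median -0.39). Means in Vehicle and GDF15 were 127 and 89.7 CPM for Lcn2, 4.85 and 4.02 for Csf3r, and 1.02 and 0.667 for S100a9. Which cells the RNA of Lcn2 came from was not tested. Cxcr2 was higher in GDF15, at 1.41 CPM in Vehicle and 1.67 in GDF15. The granule genes Elane, Mpo and Camp had 21, 27 and 13 counts over all 15 libraries. None of the 4 was called by edgeR, and 1 had an unadjusted p below 0.05. DESeq2, run on all 12 without the filter for low counts, called 1.

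Kupffer cell markers lay on both sides of 0. Of 12 tested, 5 were below 0 in GDF15 vs Vehicle (list median 0.11) and 4 in PairFed vs Vehicle (list median 0.07), with none called by edgeR, DESeq2 or limma-voom and 2 and 0 at an unadjusted p below 0.05 in edgeR. Their summed level was 528 to 653 CPM in Vehicle, 413 to 683 in GDF15 and 530 to 641 in PairFed. Of 9 endothelial genes 3 were below 0 in GDF15 vs Vehicle (list median 0.06) and 0 in PairFed vs Vehicle (list median 0.36), also with none called by any of the 3 tools and 0 at an unadjusted p below 0.05. All 8 genes of lipid-associated macrophages were tested and 6 were below 0 in GDF15 vs Vehicle (list median -0.41), none called by edgeR or limma-voom, 1 by DESeq2 and 4 at an unadjusted p below 0.05. Without GDF15 1, the GDF15 vs Vehicle median of the Kupffer list was 0.20 with 3 of 12 below 0, and that of the endothelial list 0.27 with 1 below 0. The same fit left 1 T and NK cell gene called, Cd8a, and gave list medians of -0.31 for the oxidase genes, -0.32 for the beta2 integrin genes (5 below 0), 0.016 for the CD14 and TLR4 genes (5 below 0), -0.20 for the other monocyte genes, -0.34 for the lipid-associated macrophage genes and -0.37 for the stellate and fibroblast genes (8 below 0). The part of leukocyte, T cell and stellate cell RNA in the members' levels was not tested.

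**Figure D4:**
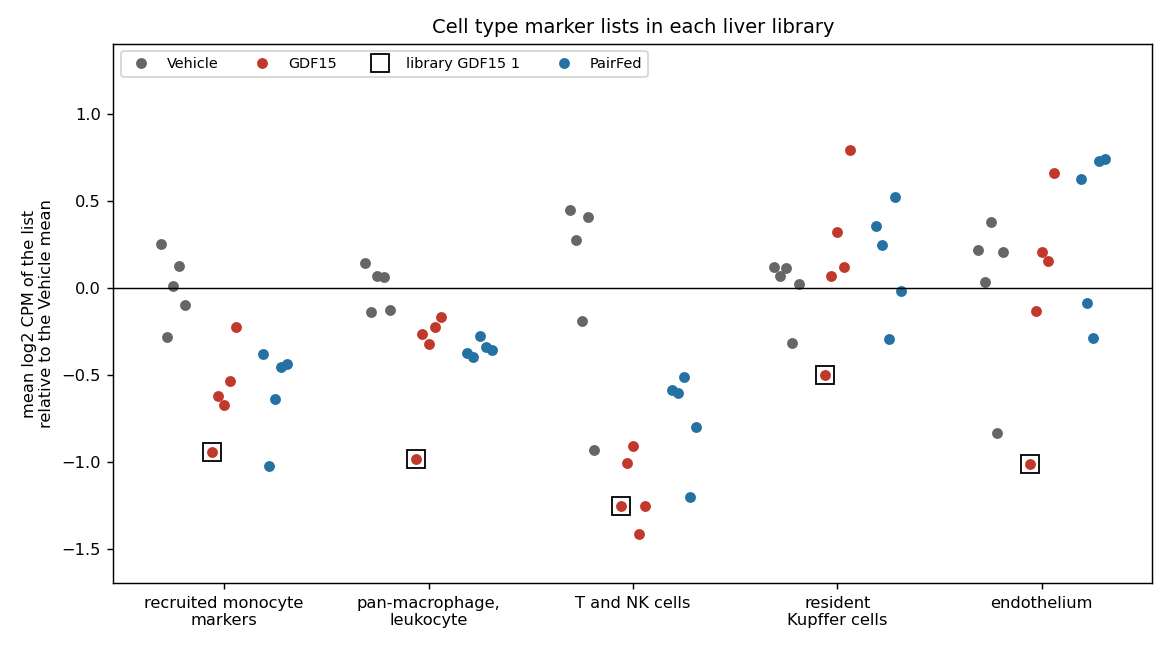
Mean log2 CPM of 5 marker lists in each liver library (points), relative to the Vehicle mean (y axis, 0 line), with library GDF15 1 boxed. Monocyte, leukocyte and T and NK cell scores of GDF15 and PairFed lie mostly below Vehicle, Kupffer scores on both sides of it, and GDF15 1 is the lowest for leukocyte (-0.98), Kupffer (-0.50) and endothelial (-1.01) genes.

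Stellate and fibroblast genes, markers of cells that can also carry S100a4, were all 10 below 0 in both comparisons with Vehicle (list medians -0.47 and -0.29). None was called by edgeR, DESeq2 or limma-voom, and 1 and 0 had an unadjusted p below 0.05 in edgeR. Hepatocyte genes were higher by a list median of 0.23 in GDF15 vs Vehicle, with 1 of 9 called (Cps1). Genes induced by glucocorticoids, the pathway named in the study's title, were measured alongside. In GDF15 vs Vehicle 7 of 8 rose (list median 1.62), where 2.9% of all tested genes were called in either direction. In GDF15 vs PairFed 5 of 8 rose (list median 1.21), where 0.782% of all tested genes were called. How these genes relate to the monocyte markers was not tested.

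Within groups, the members did not vary as one block. After the group means were taken away, the 45 pairs of members had a median Pearson r of 0.18 over the 15 libraries, from -0.34 to 0.86, with 38 above 0 and 5 above 0.5. The closest pairs were Cybb with Clec12a (r = 0.86, rho = 0.74) and Itgam with Cd14 (r = 0.86, rho = 0.89), followed by Cx3cr1 with Itgam (r = 0.72, rho = 0.69). Against the mean of the other 9, Itgam (0.71), Cd14 (0.68) and Cybb (0.65) had the highest r, whereas Ly6c2 (0.28), S100a4 (0.14) and Ccr2 (-0.11) had low ones. All points share the library, its depth and its scaling, so these values describe the libraries and carry no test.

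The 5 tested genes outside the list whose library pattern was most like the members' mean, by the same group-centred r over 15 libraries, were Fmnl3 (r = 0.95, rho = 0.92), Arhgdib (r = 0.95, rho = 0.91), Ncs1 (r = 0.95, rho = 0.92), Col6a3 (r = 0.92, rho = 0.78) and Sh3pxd2b (r = 0.92, rho = 0.82). For Ly6c2 alone they were Gm20257 (r = 0.83, rho = 0.81), Aldh3b1 (r = 0.81, rho = 0.71), Mak16 (r = 0.80, rho = 0.79), Nol9 (r = 0.79, rho = 0.79) and Sh3kbp1 (r = 0.78, rho = 0.73). No gene was among the 5 of both profiles.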

How the data were processed

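The deposited table holds estimated counts per gene symbol (expected counts, all whole numbers, not scaled to depth) for 15302 genes in 15 libraries. Per the labels' protocols, total RNA (TRIzol, then RNeasy) went into strand-keeping NEBNext libraries. Per the submitters' processing notes, the tools were Salmon and DESeq2 and the build mm10. Which versions, transcript set and strand setting were used is not given in the sources used here. Columns were put in groups by name and numbered by table order, since they could not be tied to single animals.

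The filter was filterByExpr of edgeR 4.0.16 under R 4.3.3 (count of 10, total of 15) and kept 12274 genes with 99.92% of the counts. TMM scaling, 1 quasi-likelihood fit (robust) of all 15 libraries with 12 residual degrees of freedom and Benjamini-Hochberg adjustment over all tested genes gave adjusted p-values for 3 comparisons, with calls below 0.05. Where the text names no tool, an adjusted p is from this fit. SE is the absolute log2 fold change divided by the root of F. Scores are mean log2 CPM with a prior count of 2. The log2 ratio of Ly6c2 to Ly6c1 was tested by exact permutation, since reads can be shared between copies.

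The members and gene lists were chosen with earlier results of these data known. Named were all members, fixed and called partner genes, up to 2 called genes of each other list, and the 5 genes most like the members' mean and Ly6c2. Ctss was added as the remaining call of its list, and the tested neutrophil genes were added with their levels. Counts and medians stand for the rest. Promoter windows and sequences came from RefSeq GRCm38.p6, gene positions and shared 31-base words from GENCODE M21. Total counts per library ran from 8551557 to 12994187 and the common biological coefficient of variation was 13.3%. Alternatives were upper-quartile factors or DESeq2 size factors, no filter or 10 CPM in 5 libraries, DESeq2 1.42.0, limma-voom (3.58.1), only the groups compared, a term for deeper libraries, only shallower libraries, an immediate-early covariate, another prior count or thinned counts for the ratio, and each library left out in turn.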

Additional observations from a re-analysis of the deposited data

Results flagged for a closer look

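In the Vehicle group Ms4a7 was at 3.62 CPM in Vehicle 2, far below the next lowest library of that group at 8.99 CPM. In the PairFed group Cybb was at 24.3 CPM in PairFed 5, below the next lowest at 27.2 CPM, and the other 4 libraries lay within a narrow band. Each gap was larger than Dixon's limit of 0.71 of the group's range for 5 samples (0.729 and 0.878). These were 2 of the 30 sets of 5 values examined (10 members in 3 groups), and chance flags about 1 in 20.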

How the results depend on the processing

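Over 25 alternatives (15 of them leaving out 1 library), 683 of 725 values of members kept direction and side of the threshold, 8 lost a call, 5 gained one and 29 turned sign. In GDF15 vs Vehicle no member turned sign. Only Ly6c2 lost calls there, and it was not tested with the 10 CPM filter or in the fit of 2 groups. Low counts limit Ly6c2, Ccr2 and S100a4. No paired analysis was possible because the columns could not be tied to single animals and the labels pair none.

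The number of members called in GDF15 vs Vehicle (1) was 0 with the 10 CPM filter, among shallower libraries and with the immediate-early covariate, and 0 to 2 without 1 library. In PairFed vs Vehicle (0) it was 1 by DESeq2 and 1 in the fit of 2 groups, and 0 to 1 without 1 library. All genes called in GDF15 vs Vehicle (356) were 625 by DESeq2, 194 in the fit of 2 groups, 151 among shallower libraries, 8 with the immediate-early covariate and 134 to 476 without 1 library. In PairFed vs Vehicle (35) they were 332 by DESeq2, 0 with the depth term, 0 among shallower libraries, 8 with the covariate and 0 to 135 without 1 library. In GDF15 vs PairFed (96) they were 247 by DESeq2, 9 with the depth term, 0 among shallower libraries, 35 with the covariate and 21 to 171 without 1 library. Among shallower libraries PairFed is a lone library, assumed to vary like the other groups. Fewer samples enter that fit and the fits without 1 library; for the other settings the cause was not tested.

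These log2 fold changes turned sign. In PairFed vs Vehicle, Ccr2 was 0.98 among shallower libraries, and Cd14 was 0.094 with the depth term, 0.26 among shallower libraries, 0.016 with the covariate and -0.17 to 0.076 without 1 library. In GDF15 vs PairFed, Ccr2 was -0.0075 with upper-quartile factors, -0.016 by DESeq2, -0.31 with the depth term, -1.19 among shallower libraries, -0.43 with the covariate and -0.31 to 0.49 without 1 library. S100a4 was 0.23 with the depth term, 0.31 among shallower libraries and -0.46 to 0.19 without 1 library. Plac8 was 0.023 with the depth term, 0.025 among shallower libraries and -0.21 to 0.045 without 1 library. Cx3cr1 was 0.0096 by limma-voom and -0.53 to 0.20 without 1 library, Cybb -0.011 to 0.25 without 1 library, and Clec12a -0.062 among shallower libraries. The log2 ratio of Ly6c2 to Ly6c1 in GDF15 vs PairFed (-0.25) was 0.053 with thinned counts and -0.49 to 0.086 without 1 library. In GDF15 vs Vehicle with the covariate, Lbp was -0.056, Csf1r 0.047 and Spi1 0.010.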
